A study of Homo sapiens with 6 samples.

Results

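The genes described here encode kinesins named by the KIF symbol, together with 1 gene whose name places it among them. They are the protein-coding genes of the table whose symbols begin with KIF and a digit, or with KIFC and a digit, and 43 of 58735 listed genes met that rule. Of these, 12 act mainly on the mitotic spindle (mitotic kinesins), 15 are carriers of vesicles, organelles and other cargo (transport kinesins), and 16 are neither or have other known roles (other kinesins). KIF1BP meets the rule by name only, since it encodes a kinesin-binding protein and no motor, and it is kept among the other kinesins. The rule reads gene symbols and gene type and uses no measured value.

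The RNA came from HCT116, an established human colorectal carcinoma line, in 3 libraries of a control group (CTR, genotype labelled WT) and 3 libraries of cells given a synthetic mimic of the microRNA miR-8485. Per the study's methods the mimic was used at 50 nM and the cells were collected 48 h after transfection, as 3 independent biological replicates a group. The sequence and dose of the control oligonucleotide are not given in the sources used here, and all samples are 1 cell line. Levels are in FPKM, fragments scaled by gene length and by the mapped fragments of the library, and the libraries held 17473874 to 18480047 fragments on listed genes.

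The epithelial markers EPCAM and CDH1 were expressed in both groups, with means of 135 and 130 FPKM for EPCAM and 19.7 and 19.0 FPKM for CDH1 in CTR and miR-8485. Of the 6 epithelial markers tested with limma, 3 fell and 1 rose, beside 30.5% of all tested genes lower and 29.1% higher. The keratins KRT8, KRT18 and KRT19 fell, with log2 fold changes of -0.62, -0.97 and -0.58 and group means of at least 292 FPKM. CDX2 rose by 0.81, from 16.04 to 28.2 FPKM, whereas VIL1 and CDX1 were near 0. Markers of leukocytes and of endothelial cells summed to at most 0.729 and 0.312 FPKM in any library, with CD3E at 0. The 5 fibroblast markers summed to 4.26 to 4.51 FPKM in CTR and 6.32 to 6.50 FPKM in miR-8485, nearly all of it COL1A1, with DCN at 0. No fragment was assigned to the gene of the microRNA itself, MIR8485, and no value of the table measures the mimic.

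Kinesins are motor proteins that bind microtubules and use ATP, most of them to walk along the filament and a few to take its ends apart. Mitotic kinesins build the bipolar spindle, move chromosomes and set up the central spindle for cytokinesis, and most of their transcripts peak in G2 and M phase. Transport kinesins carry cargo through the cytoplasm at all stages, often with light chains or adaptors. A microRNA pairs through its seed, bases 2 to 8, with sites that lie mostly in 3′ untranslated regions (UTRs), and lowers the level or translation of the bound mRNA.

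The promoters of the mitotic kinesins share sequence that the choice of the genes did not use. Many genes of G2 and M phase carry a cell cycle genes homology region (CHR) close to the start, which is bound by complexes built around MuvB. Upstream of it they carry CCAAT boxes bound by NF-Y. The CHR, read here only as TTTGAA or TTCGAA, and CCAAT were searched on both strands. The RefSeq windows ran from 250 bases before to 50 bases after each gene start (GRCh38.p14). A gene was counted once over all its windows, and 35 of the 43 genes had a window. The stretch from 80 bases before to 50 bases after the start is given for 7 genes, 5 mitotic kinesins that were lower with the mimic (KIF11, KIF18B, KIF4A, KIFC1 and KIF2C), 1 that was not called (KIF18A), and KIF1C, a transport kinesin that was higher. Capitals mark the CHR and CCAAT matches in either orientation, so that TTCAAA and ATTGG are matches on the other strand.
KIF11, chr10:92593050-92593179, plus strand: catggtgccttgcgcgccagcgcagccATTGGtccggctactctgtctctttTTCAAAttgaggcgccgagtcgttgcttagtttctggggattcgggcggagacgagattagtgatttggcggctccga
KIF18B, chr17:44947724-44947853, minus strand: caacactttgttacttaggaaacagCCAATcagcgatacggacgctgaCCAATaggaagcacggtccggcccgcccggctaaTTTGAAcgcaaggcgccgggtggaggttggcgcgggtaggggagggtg
KIF4A, chrX:70290024-70290153, plus strand: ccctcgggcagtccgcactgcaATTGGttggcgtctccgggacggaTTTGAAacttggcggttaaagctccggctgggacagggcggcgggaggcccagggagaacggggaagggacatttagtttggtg
KIFC1, chr6:33391743-33391872, plus strand: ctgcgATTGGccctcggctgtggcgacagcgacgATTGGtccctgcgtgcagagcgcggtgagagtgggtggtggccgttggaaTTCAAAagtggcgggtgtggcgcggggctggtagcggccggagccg
KIF18A, chr11:28108107-28108236, minus strand: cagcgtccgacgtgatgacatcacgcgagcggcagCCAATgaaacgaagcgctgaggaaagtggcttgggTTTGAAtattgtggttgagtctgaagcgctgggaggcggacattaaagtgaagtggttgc
KIF2C, chr1:44739757-44739886, plus strand: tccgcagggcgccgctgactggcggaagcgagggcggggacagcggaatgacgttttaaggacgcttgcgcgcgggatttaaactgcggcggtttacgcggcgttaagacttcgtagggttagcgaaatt
KIF1C, chr17:4997870-4997999, plus strand: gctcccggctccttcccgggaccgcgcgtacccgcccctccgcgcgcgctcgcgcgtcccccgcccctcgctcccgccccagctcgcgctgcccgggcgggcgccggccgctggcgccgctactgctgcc

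A CHR match was present in 10 of the 12 mitotic kinesins (83.3%), in 1 of 11 transport kinesins with a window (9.09%) and in 2 of 12 other kinesins (16.7%), compared with 19.5% of 27305 genes. CCAAT was found in 10 of 12 mitotic and 4 of 11 transport kinesins (36.4%), against 39.7% of all genes. Both motifs stood in the windows of 9 of 12 mitotic kinesins (75.0%) and of 9.02% of all genes. In the mitotic kinesins the CHR match nearest the start lay between 55 bases before and 25 bases after it, and the CCAAT matches between 131 and 22 bases before it. KIF5B was the transport kinesin with both, its CHR letters at 140 bases before the start. Of the 9 mitotic kinesins with both matches, all but KIF18A were called lower, beside 30.5% of all tested genes. KIF20A with CCAAT only, KIF15 with the CHR match only and KIF2C with neither were also called lower. Whether the matches bear on the calls was not tested. Other forms of the CHR were not searched, so a gene without a match may still carry the element. A match is a string of letters and shows no binding.

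**Figure D1:**
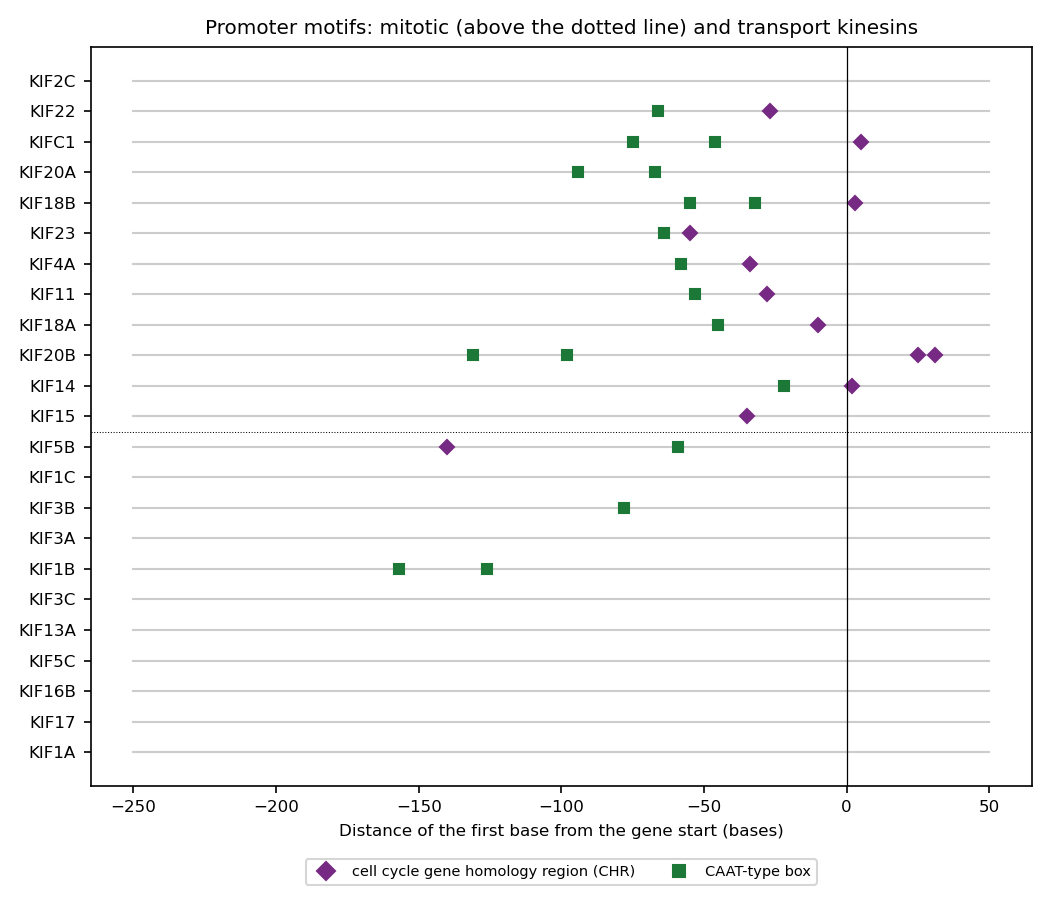
Positions of the CHR (diamonds) and CCAAT box (squares, labelled CAAT-type box) matches on either strand around the gene start, in bases, for the 12 mitotic kinesins and the 11 transport kinesins with a promoter window; for genes with several windows the one listed at the top of the table is drawn, so the CCAAT match of KIF5C, in its other window, is absent. The CHR matches of 10 mitotic kinesins lie close to the start, and KIF2C has no match of either kind.

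The second kind of sequence concerns the mimic. TGTGTGT is the run of letters that pairs with the seed of miR-8485. It was counted, overlaps included, in the 3′ UTR of each gene's canonical transcript (GENCODE 44, hg38). It occurred in 12 of 43 kinesin genes, and in 9 of the 29 genes that could be tested (31.0%), against 28.9% of 10672 tested genes with a 3′ UTR. At least 5 copies were present in 1 of 29 (3.45%), compared with 4.79% of all. The 24 bases around the longest run of alternating T and G, or within it where it is longer, are given for 5 genes, KIFC1 and KIF5C with the most copies and 3 transport kinesins with few, the run in capitals.
KIFC1, chr6:33409706-33409729, plus strand: TGTGTGTGTGTGTGTGTGTGTGTG
KIF5C, chr2:149024516-149024539, plus strand: GTGTGTGTGTGTGTGTGTGTGTGT
KIF3C, chr2:25927033-25927056, minus strand: tgtgtgtaTGTGTGTGcgtgtttg
KIF1B, chr1:10381519-10381542, plus strand: tatctaacTGTGTGTGgtaacctt
KIF3B, chr20:32332655-32332678, plus strand: ctcataaGTGTGTGTGggtgtgag

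KIFC1 was the only mitotic kinesin with a copy: its 3′ UTR of 206 bases held 22 overlapping copies in a run of 49 bases. KIF5C, below the level needed for the test, held 23 copies over its 3′ UTR, where the longest run was 46 bases. Of the tested transport kinesins, 6 of 11 had a copy (54.5%, against 28.9% of tested genes with a 3′ UTR). KIF1B, KIF3A, KIF3C and KIF5A of these were called lower, beside 30.5% of all tested genes, and KIF3B and KIF13B were not called. Without a copy, KIF5B and KIF13A were called lower, KIFC2 and KIF1C were called higher and KIFC3 was not called. KIF2A and KIF21B, with 3 copies each, were the 2 of 6 other kinesins with a site. The remaining 10 mitotic kinesins that were called lower had no copy in the canonical 3′ UTR. Over all tested genes the median log2 fold change was 0.02 without a copy, -0.13 with 1 to 4 copies and -0.36 with at least 5, and the median UTR length rose with it, from 877 to 2540 and 3761 bases.

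The comparison asked how the transcript of each kinesin differed between cells given the mimic and control cells. Mitotic kinesins were lower as a group, transport kinesins split in both directions, and the other kinesins that could be tested were all lower. Of the 29 genes with a mean of at least 1 FPKM over the 6 libraries, 23 were downregulated and 2 upregulated at an adjusted p below 0.05 (limma on log2(FPKM + 0.1), Benjamini-Hochberg over 12349 genes), while 4 were not called. The mimic group differed widely from CTR, with 30.5% of all tested genes downregulated and 29.1% upregulated. In 25 of the 29 genes the libraries of the groups did not overlap, compared with 66.5% of all tested genes. KIF13A and KIF5A reached the level for the test only through their CTR values. The list medians were -0.84 for the 12 mitotic, -0.40 for the 11 tested transport and -0.45 for the 6 tested other kinesins, beside -0.0041 for all genes tested. No test of the difference between the lists was made. In bulk RNA, fewer cells in a phase of the cycle and less of a transcript per cell cannot be told apart.

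**Figure D2:**
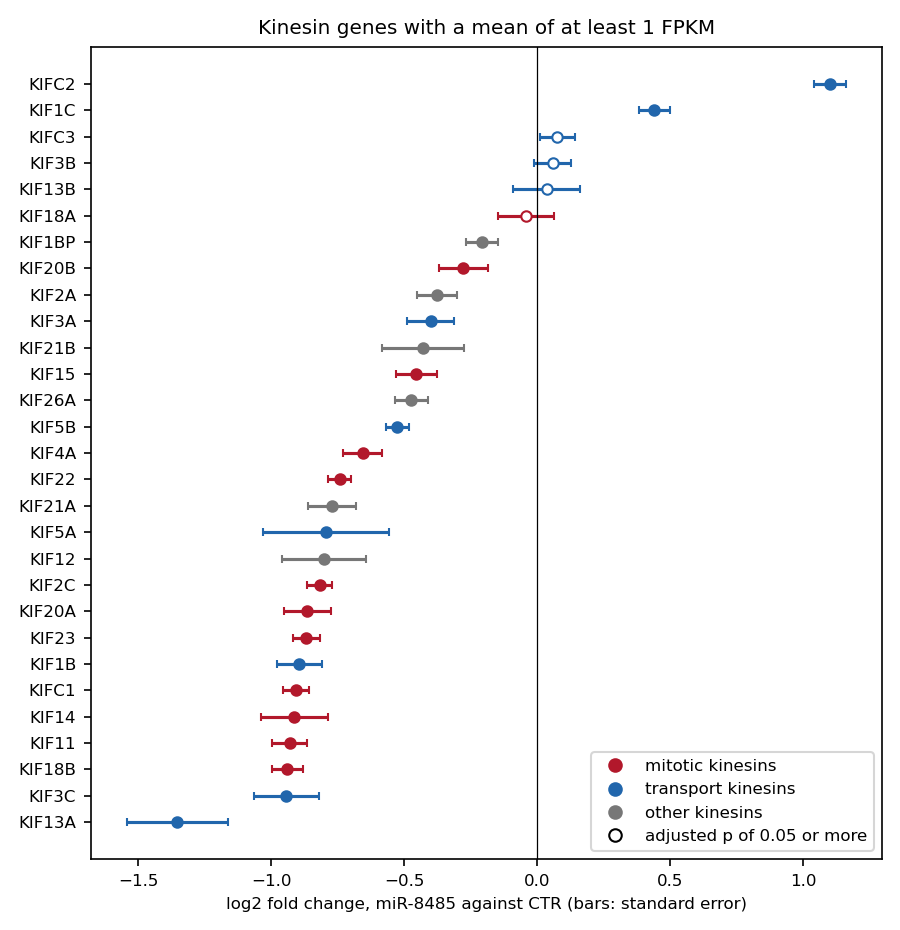
log2 fold change of miR-8485 against CTR with its standard error for the 29 tested genes, ordered by size and coloured by group, with open circles for genes not called. Mitotic kinesins span -0.94 to -0.04, whereas transport kinesins reach from -1.35 (KIF13A) to 1.10 (KIFC2).

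Among the mitotic kinesins, 11 of 12 fell and none rose, against the 30.5% of genes downregulated overall. Their summed level was 184.6 ± 5.3 FPKM in CTR and 108.1 ± 2.5 FPKM in miR-8485 (SD, n = 3). The log2 fold changes of the 12 ranged from -0.94 to -0.04, and 9 of them were at or below -0.65. That bound was not set in advance, and 4 of the 11 tested transport kinesins and 2 of the 6 tested other kinesins also reached it. Those 4 include KIF13A and KIF5A, which were tested only because of their CTR values. KIF20B, KIF15 and KIF18A were the 3 mitotic kinesins that moved less.

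KIF11 (Eg5) slides antiparallel microtubules apart and so separates the spindle poles. It measured 12.5, 14.0 and 12.1 FPKM in CTR and 6.58, 6.68 and 6.84 FPKM in the mimic group. Every mimic library was well below every CTR library, and the log2 fold change was -0.93 ± 0.07 (SE, limma, adjusted p = 2.58e-05). KIF15, which can hold spindle poles apart when KIF11 is weak and is brought to the spindle by TPX2, measured 3.64, 3.53 and 3.42 against 2.43, 2.74 and 2.48 FPKM. Its groups did not overlap either, but its fall was smaller (log2 fold change -0.45 ± 0.08, limma adjusted p = 0.00185). The annotated KIF15 locus shares 3802 bases on the same strand with TMEM42, whose mean was 1.66 FPKM in CTR and 4.30 FPKM in miR-8485, and its part in the KIF15 value was not tested. KIFC1 (HSET), a minus-end-directed motor that cross-links spindle microtubules and clusters extra centrosomes, measured 25.2, 26.2 and 24.9 FPKM in CTR and 14.2, 13.2 and 13.3 FPKM with the mimic. Its log2 fold change was -0.90 ± 0.05 (limma, adjusted p = 9.45e-06). The 11 mitotic kinesins without a TGTGTGT site ranged from -0.94 to -0.04.

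Depolymerases and motors at microtubule tips showed the widest contrast within the list. KIF18B, which works at the plus ends of astral microtubules, was at 16.0, 17.01 and 16.9 FPKM in CTR and 8.24, 9.20 and 8.46 FPKM in miR-8485. This was the largest fall of the 12 mitotic kinesins (log2 fold change -0.94 ± 0.06, limma adjusted p = 1.5e-05). Its relative KIF18A dampens chromosome movements at the plus ends of kinetochore fibres. KIF18A was at 7.51, 7.31 and 8.01 FPKM in CTR and 7.30, 8.63 and 6.41 FPKM with the mimic, the groups overlapped, and no difference was called (log2 fold change -0.04 ± 0.11, limma adjusted p = 0.762). Without miR-8485 replicate 3 its log2 fold change was 0.06. KIF2C (MCAK), which removes tubulin from microtubule ends at centromeres, was the mitotic kinesin with the highest CTR mean, at 29.2, 31.2 and 29.6 FPKM in CTR and 17.4, 16.9 and 16.6 FPKM with the mimic (log2 fold change -0.82 ± 0.05).

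The chromokinesins KIF22 and KIF4A bind chromosome arms. KIF22 (Kid), which pushes the arms away from the poles, was at 29.0, 29.4 and 29.2 FPKM in CTR and 17.6, 16.8 and 17.8 FPKM in the mimic group. KIF4A, which also shortens central spindle microtubules together with PRC1, was at 14.1, 13.1 and 13.3 FPKM and at 7.86, 9.42 and 8.42 FPKM. Both fell, with log2 fold changes of -0.74 and -0.65 and limma adjusted p of 1.14e-05 and 0.000222. KIF4A has a near-identical copy, KIF4B, to which 0 to 4 fragments a library were assigned, so reads shared between them are uncertain.

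The motors of cytokinesis were KIF23, KIF20A, KIF14 and KIF20B. KIF23 (MKLP1) forms centralspindlin with RACGAP1 and measured 15.1, 15.4 and 15.4 FPKM in CTR and 8.44, 7.94 and 8.66 FPKM in miR-8485 (log2 fold change -0.87 ± 0.05, limma adjusted p = 1.16e-05). KIF20A (MKLP2), which carries the chromosomal passenger complex to the central spindle, measured 19.2, 22.5 and 21.5 FPKM against 10.4, 12.6 and 11.6 FPKM (-0.86 ± 0.09). KIF14, which localises citron kinase to the midbody, measured 3.76, 5.07 and 4.64 FPKM against 2.29, 2.58 and 2.12 FPKM (-0.91 ± 0.13). These 3 genes fell by similar amounts from very different levels. KIF20B, which acts late in cytokinesis, measured 4.31, 5.43 and 4.95 FPKM in CTR and 3.90, 4.24 and 3.88 FPKM in the mimic group. The groups did not overlap, and the call was close to the threshold (log2 fold change -0.28 ± 0.09, limma adjusted p = 0.0353). It was lost without CTR replicate 2 (0.106), CTR replicate 3 (0.0881), miR-8485 replicate 1 (0.0949) or miR-8485 replicate 3 (0.0963), with all genes above 0 in the fit (0.0945) and with the gene length trend removed (0.0773).

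**Figure D3:**
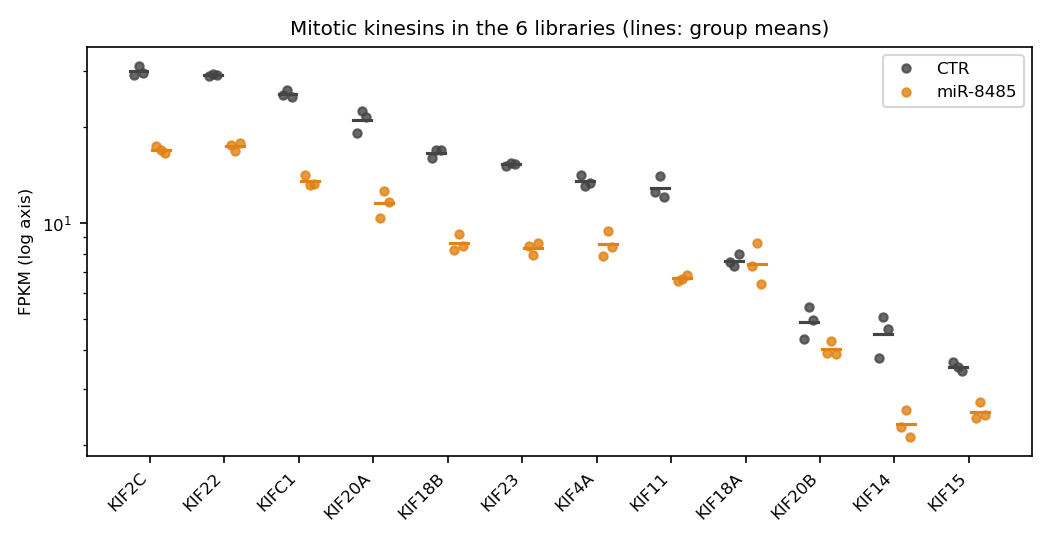
FPKM (log axis) of the 12 mitotic kinesins in each CTR (grey) and miR-8485 (orange) library, with lines at group means. All mimic libraries lie below all CTR libraries for 11 genes, and the points of KIF18A overlap. Over all tested genes, the libraries of the groups did not overlap in 66.5%, in either direction.

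Proteins that work with the mitotic kinesins were read from a list of 14 partners, of which 13 were tested. CENPE in this list is itself a kinesin, which the symbol rule does not reach, and was called lower (log2 fold change -0.85). In that list 11 fell, 1 rose and 1 was not called, with a median log2 fold change of -0.77, beside 30.5% of all tested genes lower and 29.1% higher. The kinase CIT, partner of KIF14, fell by 1.22 on the log2 scale and AURKA fell by 1.13, whereas RACGAP1, partner of KIF23, fell by 0.77 and TPX2 fell by 0.90. NUMA1, a spindle pole protein, rose by 0.27 (limma adjusted p = 0.0157), and BIRC5 was not called at means of 44.3 and 41.6 FPKM. PRC1, partner of KIF4A, was listed below 1 FPKM in both groups and not tested. All 15 G2 and M phase genes other than kinesins fell, against 30.5% of all tested genes, with a median of -0.84. MKI67 fell by 2.12 and BUB1 fell by 1.24, the largest changes in that list. Of the 15 S phase genes, 12 fell and MCM7 rose by 0.15, with a median of -0.51, against the same 30.5% and 29.1%. RRM2 fell by 1.29 and CDC45 fell by 1.17 there. Among 10 tested factors that drive or repress G2 and M phase transcription, 6 fell and 2 rose, beside 30.5% and 29.1% of all tested genes. MYBL2 fell by 1.06, LIN52 fell by 1.25 and FOXM1 fell by 0.77, whereas the pocket protein RBL2 rose by 0.86 and RBBP4 rose by 0.49.

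Transport kinesins gave calls in both directions, 6 lower, 2 higher and 3 not called among the 11 tested, beside the 30.5% lower and 29.1% higher over all genes. The 6 include KIF13A and KIF5A, whose CTR values alone brought them to the level for the test, so their falls add little to that count. Their summed level was 114.5 ± 0.9 FPKM in CTR and 123.0 ± 0.4 FPKM in miR-8485, while most single genes fell. Summed over all genes tested, FPKM was higher too, at 329222 ± 8622 in CTR and 356720 ± 9237 in miR-8485. Whether the transport sum rose beyond that was not tested. The median of the transport kinesins depended on which genes and libraries entered. It was -0.16 without CTR replicate 3, and 0.25 over the 4 transport kinesins with a mean of at least 5 FPKM.

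**Figure D4:**
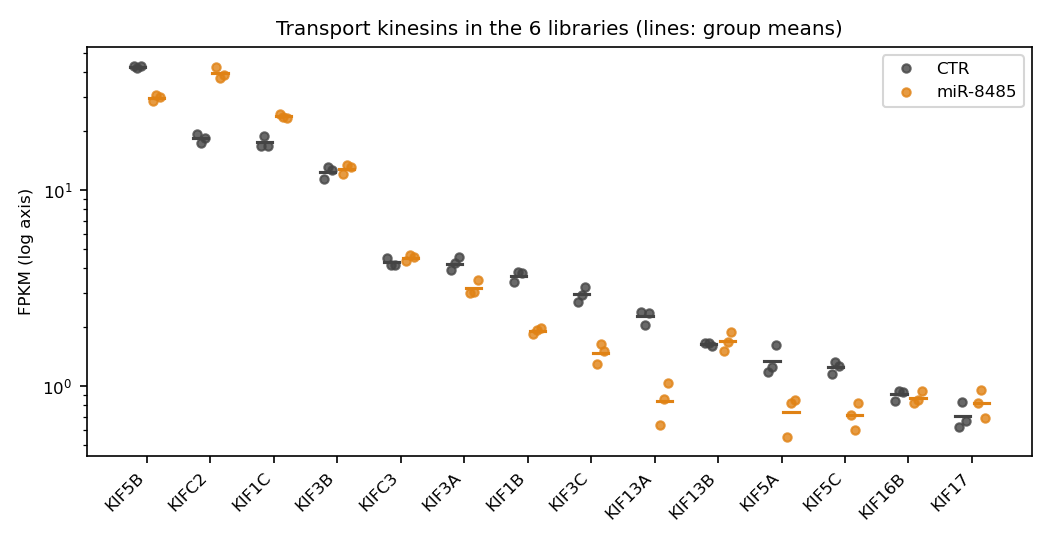
FPKM (log axis) of the 14 transport kinesins with a mean above 0.5 FPKM in each CTR (grey) and miR-8485 (orange) library, with lines at group means. KIFC2 and KIF1C are higher in all mimic libraries, and KIF5B, KIF3A, KIF1B, KIF3C, KIF13A, KIF5A and KIF5C are lower. Over all tested genes, the libraries of the groups did not overlap in 66.5%.

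Kinesin-1, the main plus-end carrier, is built from the heavy chains KIF5A, KIF5B and KIF5C. KIF5B, the ubiquitous heavy chain, had the highest level of all kinesins in CTR, at 43.4, 42.0 and 42.9 FPKM, and measured 28.5, 30.6 and 29.9 FPKM in the mimic group. Its libraries were well apart (log2 fold change -0.53 ± 0.04, limma adjusted p = 5.40e-05). The heavy chains best known from neurons were low: KIF5A measured 1.18, 1.25 and 1.62 FPKM in CTR and 0.551, 0.821 and 0.855 FPKM with the mimic. Its groups did not overlap and it fell by 0.79 on the log2 scale (limma adjusted p = 0.0223), a call that was lost without miR-8485 replicate 1 (0.0559). KIF5C stayed just under the level for the test with 192, 222 and 213 fragments in CTR and 118, 100 and 145 with the mimic. In a voom fit to the fragments of all 31768 genes above 0, chosen after the data were seen, it was lower (log2 fold change -0.83, adjusted p = 0.000188), as were 13.6% of those genes.

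Both transport kinesins that rose lie outside kinesin-1. KIFC2, a motor with its head at the C-terminal end that is best known from axonal transport, measured 19.3, 17.6 and 18.4 FPKM in CTR and 42.5, 37.7 and 38.9 FPKM in miR-8485. Its mean was 2.15-fold higher, with every mimic library far above every CTR library (log2 fold change 1.10 ± 0.06, limma adjusted p = 9.92e-06). KIF1C, a kinesin-3 that carries dense-core vesicles and integrins, measured 16.9, 19.0 and 16.9 FPKM in CTR and 24.4, 23.7 and 23.5 FPKM with the mimic (0.44 ± 0.06, limma adjusted p = 0.000464). KIFC3, another C-terminal motor, known from adherens junctions, was not called, at 4.53, 4.17 and 4.17 FPKM and 4.34, 4.66 and 4.58 FPKM (0.08 ± 0.06, limma adjusted p = 0.342), and the sign of its difference turned under TPM scaling (-0.04).

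KIF1B and KIF13A, kinesin-3 motors like KIF1C, went the other way. KIF1B, which carries mitochondria and synaptic vesicle precursors, measured 3.40, 3.82 and 3.78 FPKM in CTR and 1.84, 1.94 and 1.99 FPKM in miR-8485 (log2 fold change -0.89 ± 0.08, limma adjusted p = 9.77e-05). KIF13A, which moves recycling endosomes, measured 2.40, 2.06 and 2.38 FPKM against 0.636, 0.860 and 1.04 FPKM. This was the largest change among the 29 tested genes (-1.35 ± 0.19, limma adjusted p = 0.000669), but KIF13A reached the level for the test only through its CTR values. KIF13B, its closest relative, was at 1.66, 1.67 and 1.61 FPKM in CTR and 1.51, 1.68 and 1.90 FPKM with the mimic, so the groups overlapped. It was not called (0.04 ± 0.13), and the sign of its difference turned under TPM scaling (-0.08) and without miR-8485 replicate 3 (-0.05).

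Heterodimeric kinesin-2 joins KIF3A to KIF3B or KIF3C and binds the accessory subunit KIFAP3. KIF3A measured 3.90, 4.25 and 4.55 FPKM in CTR and 3.01, 3.05 and 3.50 FPKM in the mimic group (log2 fold change -0.40 ± 0.09, limma adjusted p = 0.00626). KIF3C measured 2.69, 2.94 and 3.21 FPKM against 1.30, 1.64 and 1.52 FPKM (-0.94 ± 0.12, limma adjusted p = 0.000446). KIF3B measured 11.4, 13.1 and 12.7 FPKM against 12.1, 13.5 and 13.1 FPKM. KIF3A and KIF3C thus fell without overlap, whereas the KIF3B groups overlapped and it was not called (0.06 ± 0.07, limma adjusted p = 0.490), with a sign that turned under TPM scaling (-0.06). KIFAP3 was not called either, at means of 4.19 and 4.002 FPKM.

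Ratios of FPKM within a library compare relatives without any scaling between libraries. They were taken for 7 pairs chosen after the values were seen, and for all 7 the groups were apart. The exact two-sided permutation p was 0.1 for each pair, the smallest that 3 against 3 allows, and 0.1 after adjustment over the 7. The choice of pairs made such separation likely, so it adds no support to the single-gene calls. The ratio of KIFC2 to KIF5B was 0.431 ± 0.014 in CTR and 1.34 ± 0.14 in miR-8485 (SD, n = 3). The ratio of KIF1C to KIF1B was 4.80 ± 0.30 and 12.4 ± 0.8, and that of KIF13A to KIF13B was 1.39 ± 0.13 and 0.493 ± 0.064. KIF3A to KIF3B went from 0.342 to 0.247, and KIF3C to KIF3B from 0.238 to 0.115. Among mitotic kinesins the ratio of KIF18A to KIF18B went from 0.457 to 0.861 and that of KIF20B to KIF20A from 0.232 to 0.349.

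The order of levels in FPKM also changed. In CTR KIF5B was followed by KIF2C, KIF22, KIFC1, KIF20A, KIFC2 and KIF1C, and the libraries overlapped between KIF2C and KIF22, between KIF20A and KIFC2, and between KIFC2 and KIF1C. In miR-8485 KIFC2 came ahead of KIF5B, KIF1C, KIF22 and KIF2C, the last 2 again overlapping. Mitotic kinesins made up 55.5 ± 0.7% of the summed FPKM of the 43 genes in CTR and 42.0 ± 0.6% in miR-8485, whereas transport kinesins made up 34.5 ± 0.4% and 47.8 ± 0.5%. The other kinesins held 10.1% in miR-8485, within 1 SD of their CTR share. Within the transport kinesins the share of KIF5B was 37.3% and 24.1%, and that of KIFC2 was 16.1% and 32.3%.

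**Figure D5:**
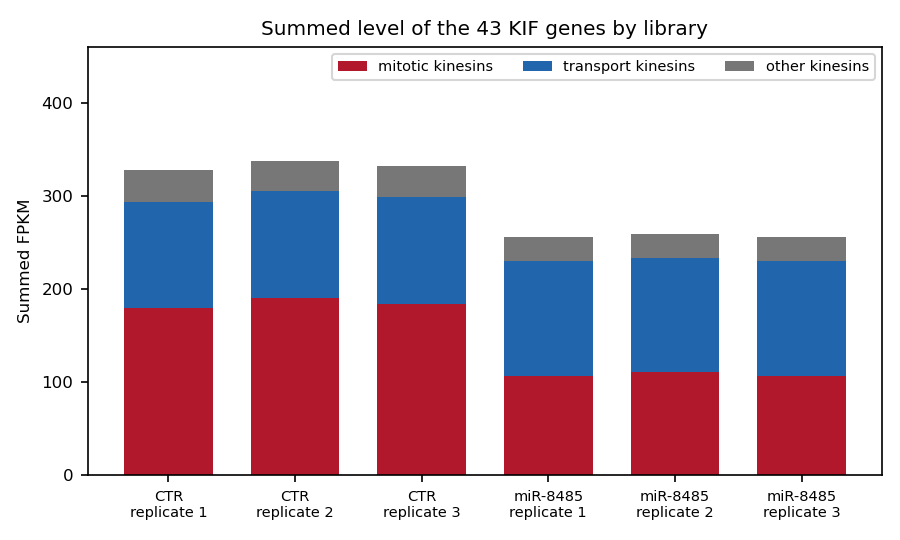
Summed FPKM of the mitotic, transport and other kinesins in each of the 6 libraries, stacked from 0. The mitotic part falls from 179.6 to 190.2 FPKM in CTR to 106.6 to 111.0 FPKM in miR-8485, while the transport part is 113.4 to 115.2 FPKM and 122.5 to 123.3 FPKM. Summed over all listed genes, FPKM was 322999 to 339641 in CTR and 351052 to 369643 in miR-8485.

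Light chains, adaptors and accessory subunits of transport kinesins were read from a list of 16 genes, all tested. Of these 8 fell and 4 rose, beside 30.5% and 29.1% of all tested genes, with a median of -0.20. The 8 include KIF1BP, which is also counted among the other kinesins. The light chains of kinesin-1 divided: KLC2 fell by 0.68 and KLC3 fell by 0.60 on the log2 scale, whereas KLC4 rose by 0.65 and KLC1 was not called at means of 1.91 and 2.18 FPKM. The scaffolds SPAG9 and MAPK8IP3, which link kinesin-1 to cargo and to JNK, changed in opposite directions, by -0.77 and 0.60. PLEKHM2 (SKIP), which joins lysosomes to kinesin-1, rose by 0.34. The mitochondrial adaptors TRAK1 and TRAK2 also went in opposite directions, by 0.26 and -0.42.

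All 6 tested genes among the other kinesins fell, beside 30.5% of all tested genes, with KIF21B and KIF1BP close to the threshold. KIF2A, a depolymerase at spindle poles and in neurites, measured 9.41, 7.92 and 8.09 FPKM in CTR and 6.74, 6.37 and 6.35 FPKM in miR-8485 (log2 fold change -0.38 ± 0.08, limma adjusted p = 0.00383). Its annotated locus overlaps IPO11 and DIMT1. KIF21A, a suppressor of microtubule growth at the cell cortex, measured 3.71, 3.32 and 3.42 FPKM against 1.95, 2.15 and 1.89 FPKM (-0.77 ± 0.09), and KIF12, known from epithelia of liver and kidney, 2.94, 3.37 and 2.77 FPKM against 1.54, 1.46 and 2.14 FPKM (-0.80 ± 0.16). These were the largest falls of the 6. KIF26A, which lacks motor activity, had means of 5.21 and 3.72 FPKM (-0.47 ± 0.06).

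KIF21B and KIF1BP were called close to the threshold. KIF21B was at 1.45, 1.43 and 1.71 FPKM in CTR and 0.999, 1.14 and 1.20 FPKM with the mimic (log2 fold change -0.43 ± 0.15, limma adjusted p = 0.0445), a call that was lost when any 1 of the 6 libraries was left out (adjusted p 0.0610 to 0.150) with a replicate block (0.0635), with all genes above 0 in the fit (0.0802) and with the gene length trend removed (0.131). KIF1BP was at 9.14, 8.77 and 8.28 FPKM and at 7.14, 7.68 and 7.83 FPKM (-0.21 ± 0.06, limma adjusted p = 0.0218). Its call was lost without CTR replicate 1 (0.0569), CTR replicate 2 (0.0584) or miR-8485 replicate 1 (0.0695).

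A mean below 1 FPKM kept 14 genes out of the test, 4 transport and 10 other kinesins. KIF2B had no fragment in any library, and 13 genes were above 0. In the voom fit to fragments 4 of them were higher, beside 13.0% of all 31768 genes. There 2 were lower, KIF5C and KIF1A, beside 13.6% of all 31768 genes. KIF9, a kinesin of motile cilia and flagella, had 73, 60 and 45 fragments in CTR and 148, 111 and 123 in miR-8485. It was higher in every mimic library (voom log2 fold change 1.08, adjusted p = 0.000383) and was called by limma with all genes above 0 in the fit as well (adjusted p = 0.0269). The opposite strand of its locus holds KIF9-AS1, at means of 0.621 and 0.458 FPKM, and the strand setting of the counting is not stated.

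KIF26B, linked to Wnt signalling, had 25, 18 and 35 fragments in CTR and 75, 72 and 73 with the mimic (voom log2 fold change 1.498, adjusted p = 0.000256), but was not called by limma (adjusted p = 0.0806). KIF27, a relative of the Hedgehog pathway kinesin KIF7, had 24, 30 and 39 fragments against 58, 48 and 67 (voom log2 fold change 0.87, adjusted p = 0.0241, limma adjusted p = 0.132). Both were higher in every mimic library. KIF6 had 0, 2 and 0 fragments in CTR and 4, 5 and 3 with the mimic, too few for a fold change to be given (voom adjusted p = 0.0292). KIF1A, the neuronal carrier of synaptic vesicle precursors, had 22, 22 and 34 fragments in CTR and 6, 5 and 9 in miR-8485 (voom log2 fold change -1.92, adjusted p = 0.00386, limma adjusted p = 0.103). The other genes at these depths, KIF7, KIF16B, KIF17, KIF19, KIF24, KIF25 and KIF4B, were not called by either fit.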

How the data were processed

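RNA of 3 CTR and 3 miR-8485 HCT116 cultures was sequenced by the study, and the deposited table gives 1 value a gene and library in FPKM. Per the labels and the methods the authors trimmed reads with fastp 0.23.1, aligned them to hg38 with HISAT2 2.0.5 and counted with featureCounts 1.5.0-p3; the annotation release and strand setting are not given in the sources used here. FPKM corrects for gene length and depth only, so a gene's value also moves with the composition of its library. All values were whole multiples of 1 fragment within 0.05, and the fragments were recovered from them. Genes with a mean of at least 1 FPKM were tested with limma 3.58.1 (R 4.3.3) on log2(FPKM + 0.1) with a variance trend and Benjamini-Hochberg adjustment over all 12349, so fold changes of low genes are understated. Genes below were read from voom on fragments, chosen after the data were seen. All mitotic kinesins and all other members with a mean of at least 1 FPKM are named; of each further list, up to 2 called genes with the largest change each way are named by rule. Partners and subunits named beyond these (such as RACGAP1, TPX2, FOXM1, KLC3, PLEKHM2, TRAK1, DCTN1 and DYNC1H1) were chosen after their values were seen. The genes and lists were chosen with earlier results of these data known. Same-numbered libraries did not pair (correlations 0.067, 0.034 and -0.064), so no replicate block was used. Intervals of FPKM are SD over libraries. Sequences were matched to RefSeq GRCh38.p14 and GENCODE 44.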

Additional observations from a re-analysis of the deposited data

How the results depend on the processing

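Of 478 single-gene values under other settings, for 29 genes, 452 kept direction and call, and 21 genes kept them in every setting. A filter at a mean of 5 FPKM left fewer genes tested: 11 kinesin genes downregulated for 23, 1 transport kinesin for 6, and 2417 and 2303 genes down and up over the whole table for 3769 and 3593. There the transport median became 0.25. Counting every kinesin outside the mitotic list gave 12 downregulated and 2 upregulated among 17 tested, beside 30.5% and 29.1% of all tested genes. The voom fit without a filter called 6 kinesin genes upregulated for 2, beside 13.0% of its 31768 genes. TPM scaling, which divides by the summed FPKM that was higher in the mimic libraries, moved the median of all genes from -0.0041 to -0.12 and the upregulated share of all calls from 48.8% to 35.6%, and gave medians of -0.96 for mitotic and -0.52 for transport kinesins. A pseudocount of 1 gave -0.75 for the mitotic median. Leaving out 1 library gave 20 to 23 kinesin genes down, mitotic medians of -0.86 to -0.80 and transport medians of -0.50 to -0.16. The signs that turned were those of genes not called: KIF18A (-0.15 to 0.061 with 1 library left out), KIF3B (-0.056 with TPM scaling, -0.000505 to 0.10 with 1 library left out), KIFC3 (-0.037 with TPM scaling) and KIF13B (-0.076 with TPM scaling, -0.046 to 0.11 with 1 library left out). KIFC3 was called higher with the gene length trend removed (0.19, limma adjusted p = 0.0435). A replicate block called 3754 genes down and 3634 up, 22 kinesin genes down, and lost KIF21B. The cause of the other changes was not tested. Depth limits the kinesins with few fragments, such as KIF6, KIF25 and KIF4B.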

Other observations

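Cytoplasmic dynein, the motor that moves cargo opposite to most kinesins, and its activator dynactin were read from a list of 28 genes, of which 26 were tested. In limma, 14 fell (53.8%, against 30.5% of all tested genes) and 7 rose (26.9%, against 29.1%), with a median log2 fold change of -0.21, beside -0.0041 for all genes tested. The 14 include BICD1, at means of 1.33 FPKM in CTR and 0.908 FPKM in miR-8485, which was tested only because of its CTR values. NDE1, a dynein regulator at kinetochores and centrosomes, had means of 7.72 FPKM in CTR and 2.23 FPKM in miR-8485 and fell by 1.76. The light chain DYNLL2 fell by 1.23 while its near relative DYNLL1 rose by 0.20. The large dynactin subunit DCTN1 fell by 1.04, whereas the actin-related subunit ACTR1B rose by 0.77 and the cargo adaptor BICD2 by 0.84. The dynein heavy chain DYNC1H1 rose by 0.28 (adjusted p = 0.0103) and the light intermediate chain DYNC1LI1 fell by 0.93.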
